A study of Mus musculus with 6 samples.

Results

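The cadherin superfamily, the calcium-dependent adhesion genes to which E-cadherin (Cdh1) belongs, was followed in 6 lines of mouse iPS (induced pluripotent stem) cells. Its members were taken by symbol as all numbered cadherins (Cdh), protocadherins (Pcdh), Fat, Dachsous (Dchs) and Celsr genes. On the arrays 65 of 19938 genes fitted this rule, and they are Cdh1 and 64 relatives. Dchs2 and the gamma protocadherins were not analysed here. The 3 shECAD clones (4, 8 and 9) came from OG2 mouse embryonic fibroblasts infected with the reprogramming factors Oct4, Sox2, c-Myc and Klf4, together with an shRNA against E-cadherin. The 3 control clones (2, 3 and 4) came from the same kind of fibroblasts with the same 4 factors and an shRNA against luciferase, so that both groups received the factors and an shRNA. OG2 mice carry a green fluorescent reporter of the pluripotency gene Oct4. Each line is a clone from colonies picked on day 14, was kept on feeder cells, and gave 1 array of total RNA after the feeders had been removed. Sex, passage number and the number of infections are not stated in the labels, and n = 3 clones per group limits the precision. The p-values compare the group difference with the spread between these clones, which limma moderates towards the spread over all genes. The question put to the data was whether any relative rises where Cdh1 falls.

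Classical cadherins join cells through extracellular repeats that bind the same cadherin on the next cell, while their tails hold beta-catenin and p120-catenin and, through alpha-catenin, actin. E-cadherin is the main classical cadherin of epithelia and of mouse pluripotent cells, and N-cadherin (Cdh2) and cadherin 11 (Cdh11) are typical of mesenchymal cells. Protocadherins lack the catenin-binding tail, and those of the alpha, beta and gamma clusters give neurons combinatorial surface identities. The giant cadherins Fat4 and Dachsous 1 bind each other, and the Celsr proteins are seven-pass receptors of planar cell polarity.

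As a check of the cells, all 20 pluripotency markers measured lay at or above the median level of all genes, and 0 of them were called by limma at an adjusted p below 0.05, with 6 lower and 0 higher at an unadjusted p below 0.05. Their mean log2 level was 9.13, 9.14 and 8.69 in shECAD clones 4, 8 and 9, against 9.25, 9.17 and 9.38 in control clones 2, 3 and 4, so that shECAD clone 9 stood apart from the other clones. Without clone 9 the log2 fold change of Esrrb, a naive pluripotency factor, was -0.48, against -0.81 with all clones. The array medians lay between 5.11 in control clone 3 and 5.30 in shECAD clone 9 on the log2 scale. Control clone 3 also had the lowest 25th percentile (3.73) and shECAD clone 9 the highest (4.01). The part of this offset in the small changes of dim genes was not tested. Markers of other cell types differed between the groups. In the fibroblast and feeder list 13 of 21 genes rose and 0 fell, where 1.90% and 1.23% of all genes were called higher and lower. The largest rises were Mgp (matrix Gla protein), Lox (a collagen cross-linking enzyme), Postn (periostin), Ccdc80 and Col1a1 (type I collagen). Their log2 fold changes were 2.58, 2.35, 2.26, 2.05 and 1.97. Of the list 8 genes were not called, among them Dcn (0.48), Pdgfra (0.38) and Lum (-0.23), whose groups overlapped. Col1a1 lost its call without shECAD clone 8 (limma adjusted p = 0.0661). In the simple epithelium list, which leaves out Cdh1, 6 of 13 genes rose and 1, the protease inhibitor Spint1, fell by 0.88 on the log2 scale. That list's mean log2 level was 7.55, 7.48 and 8.11 in shECAD clones 4, 8 and 9, against 6.76, 6.97 and 6.83 in control clones 2, 3 and 4, and clone 9 was again the one apart. The rises were led by the keratins Krt18, Krt19 and Krt8, the desmosomal linker Dsp and the claudin Cldn6, with log2 fold changes of 2.18, 2.09, 1.86, 1.46 and 1.36. The primed epiblast marker Fgf5 (2.27) and the intermediate filament gene Nes (1.22) rose in their lists, as 1 of 11 and 1 of 12 genes. Leaving out control clone 3 or 4 ended the call of Krt8 (limma adjusted p up to 0.0784), and without shECAD clone 9 its log2 fold change was 1.34. Cldn6 lost it without shECAD clone 4 or any single control clone (up to 0.107). Spint1 lost it without shECAD clone 4, shECAD clone 8 or control clone 4 (up to 0.0933). Nes lost it without shECAD clone 8, shECAD clone 9, control clone 2 or control clone 4 (up to 0.0992). In the endothelial, primitive endoderm and trophoblast lists 0 of 11, 0 of 12 and 0 of 10 genes were called by limma. At an unadjusted p below 0.05 these lists had 1, 3 and 2 higher genes and 1, 0 and 0 lower genes. Over all genes 8.96% were that far up and 9.07% that far down. In such bulk RNA, fewer cells of a type and less RNA per cell cannot be told apart.

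Cdh1, the target of the shRNA, was far lower in the shECAD clones. It read 6.75, 6.92 and 7.81 on the log2 scale in shECAD clones 4, 8 and 9, against 9.18, 9.60 and 9.07 in control clones 2, 3 and 4. Clone 9 kept the highest Cdh1 of the shECAD clones, and the groups did not overlap. The log2 fold change was -2.13 ± 0.27 (SE, limma adjusted p = 0.00683), with a 95% interval from -2.72 to -1.54, and the call held when any 1 clone was left out (adjusted p up to 0.0313). Without variance moderation the adjusted p was 0.194, and limma then called 3 of the 19938 genes, so that no call named below holds under that setting.

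Among the 64 relatives, 4 rose in the shECAD clones and 0 fell by limma at an adjusted p below 0.05. They were Cdh11, Cdh2, Fat4 and Pcdh18. Over all genes 3.12% were called, 1.90% as higher and 1.23% as lower. At an unadjusted p below 0.05 there were 12 higher relatives and 1 lower, where 8.96% and 9.07% of all genes were that far up or down. The shECAD values of 15 relatives lay wholly above the control values, and those of 1 relative, Celsr1, wholly below. The same held for 11.1% and 12.5% of all genes. The median change of the relatives was 0.28 on the log2 scale, and that of all genes was 0.025. By clone, the median difference of the 65 members from their control means was 0.22, 0.09 and 0.34 in shECAD clones 4, 8 and 9. It was 0.10, -0.12 and 0.01 in control clones 2, 3 and 4. The groups therefore overlapped, with shECAD clone 8 below control clone 2. Without control clone 3 the median over all 65 members was 0.18. Of the relatives 56 lay below the median level of all genes, and 3 of these 56 rose, where 1.02% of all genes below that level were called higher. The 56 relatives below that level had a median of 0.28 (log2), and all genes there one of 0.098. The 8 relatives at or above it had a median of 0.16, and all such genes one of -0.092; 1 of these 8 was called higher, as were 2.77% of all genes at that level. The counts changed when 1 clone was left out, which also leaves fewer arrays and makes a call harder to reach. Without shECAD clone 8, 0 relatives were called higher (15 at an unadjusted p below 0.05). The count was 1 without shECAD clone 4, shECAD clone 9 or control clone 4, 2 without control clone 3 and 5 without control clone 2. In these fits the log2 fold change ran from 1.55 to 2.24 for Cdh11 and from 0.80 to 1.09 for Cdh2. It ran from 0.63 to 0.80 for Fat4 and from 0.60 to 0.82 for Pcdh18. Without variance moderation 0 were called (7 at an unadjusted p below 0.05).

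**Figure D1:**
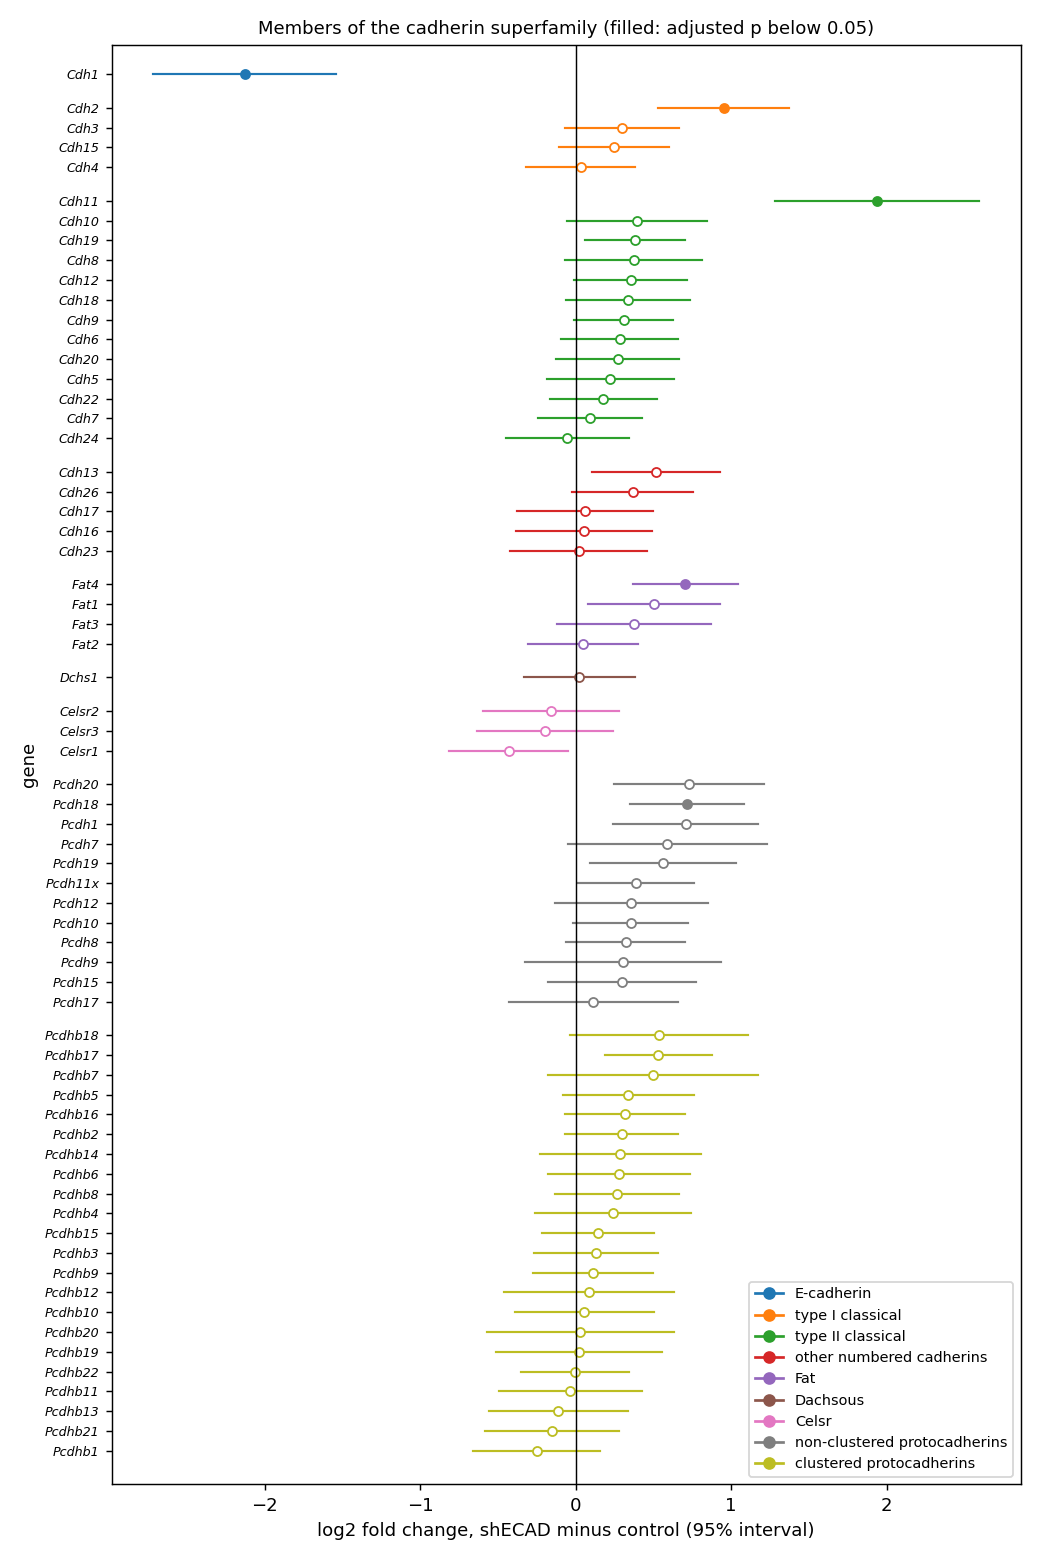
Log2 fold change (x axis, shECAD minus control) of each of the 65 members (y axis, grouped by subfamily) with its 95% interval, not adjusted for the number of genes; filled points passed the limma test at an adjusted p below 0.05. Cdh1 stands alone on the left at -2.13, Cdh11 lies farthest right at 1.94, and most other points lie between 0 and 0.75.

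Of the called members, only Fat4 and Pcdh18 were in the promoter table used, and their promoters are shown. They are the 250 bases before the start of each gene, 5′ to 3′, from RefSeq on build GRCm38.p6, whose promoter table held 28 of the 65 members. Fat4 is at chr3:38886690-38886939 on the plus strand and Pcdh18 at chr3:49757317-49757566 on the minus strand. Capitals mark the GC box (GGGCGG) and the CCAAT box, which reads ATTGG on the other strand.
Fat4: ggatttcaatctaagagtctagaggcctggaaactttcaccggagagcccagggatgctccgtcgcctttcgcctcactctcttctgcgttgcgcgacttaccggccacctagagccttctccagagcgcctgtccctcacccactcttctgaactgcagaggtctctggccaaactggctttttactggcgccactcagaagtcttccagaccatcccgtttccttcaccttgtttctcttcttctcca
Pcdh18: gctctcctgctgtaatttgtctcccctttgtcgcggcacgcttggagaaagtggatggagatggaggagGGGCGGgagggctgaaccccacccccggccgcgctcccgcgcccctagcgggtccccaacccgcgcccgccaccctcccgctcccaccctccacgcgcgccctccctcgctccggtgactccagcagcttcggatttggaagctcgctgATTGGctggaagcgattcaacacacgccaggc
Both strands were searched for these motifs, for the TATA box (TATAAA) and for an E-box that Snail and Zeb factors can bind (CAGGTG). Pcdh18 held 1 GC box and 1 CCAAT box, and the Fat4 window held none of the 4 motifs. Over all 32851 promoter windows of this length, 32.7% held the GC box, 33.9% the CCAAT box, 12.4% the TATA box and 17.2% the E-box. The GC content was 54.8% for Fat4 and 68.0% for Pcdh18, against a median of 52.4% over all windows.

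Of the type I cadherins other than Cdh1, the closest relatives of E-cadherin, 1 of 4 rose. Cdh2, the gene of N-cadherin, read 5.73, 5.65 and 6.16 in shECAD clones 4, 8 and 9, against 4.74, 5.16 and 4.77 in control clones 2, 3 and 4. All shECAD values lay above all control values, and clone 9, with the most Cdh1 left, also had the most Cdh2 of the shECAD clones. The means were 5.84 ± 0.27 in shECAD clones and 4.89 ± 0.23 in control clones (SD, n = 3 each), a 1.93-fold rise with a 95% interval from 1.45 to 2.59 (log2 fold change 0.95 ± 0.19 SE, limma adjusted p = 0.0298). Leaving out control clone 3 kept its call, and leaving out any of the other 5 clones ended it (limma adjusted p up to 0.116, without control clone 4), as did quantile normalization (0.0528).

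Cdh3, the gene of P-cadherin and the next gene to Cdh1 on its chromosome in the RefSeq gene order, read 6.31, 5.99 and 5.98 in the shECAD clones, against 5.63, 5.95 and 5.81 in the control clones. The groups are just apart. The log2 fold change was 0.30 ± 0.17 (SE, limma adjusted p = 0.38), or 0.19 with shECAD clone 4 left out, and the 95% interval reaches from a 0.953-fold to a 1.58-fold level. Cdh15 (M-cadherin of muscle) and Cdh4 (R-cadherin) were not called, at 0.25 and 0.03 on the log2 scale. The value of Cdh4 turned to -0.06 after median centring of the arrays and to -0.05 after quantile normalization.

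Of the 13 type II cadherins 1 rose, Cdh11, which is known from mesenchymal and bone-forming cells. It read 8.43, 8.52 and 8.13 in shECAD clones 4, 8 and 9, against 7.03, 6.59 and 5.65 in control clones 2, 3 and 4. The shECAD clones were close together and the control clones spread over more than 1 log2 unit, without overlap. The means were 8.36 ± 0.21 in shECAD clones and 6.42 ± 0.70 in control clones (SD, n = 3 each), a 3.83-fold rise with a 95% interval from 2.43 to 6.04 (log2 fold change 1.94 ± 0.30 SE, limma adjusted p = 0.012). Leaving out control clone 4 gave the smallest log2 fold change (1.55) and leaving out control clone 2 the largest (2.24). The call was lost only without shECAD clone 8 (limma adjusted p = 0.0527). These values are from the probeset annotated to Cdh11 alone. Probesets annotated to Cdh11 together with other symbols had log2 fold changes of 0.23, -0.05 and 0.25, with overlapping groups. What part of their signal comes from Cdh11 cannot be told from these values.

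The remaining 12 type II cadherins were not called. The genes on both sides of Cdh11 in the RefSeq order, Cdh8 and Cdh5, had log2 fold changes of 0.37 ± 0.20 and 0.22 ± 0.18 (SE). For Cdh8 this was 0.19 without control clone 3 and 0.24 without shECAD clone 9. For Cdh5 it was 0.05 without control clone 3 and 0.34 without control clone 4. Cdh5 (VE-cadherin, a defining gene of endothelium) read 4.36, 4.07 and 4.30 in the shECAD clones, against 4.12, 3.68 and 4.26 in the control clones, and these values overlapped. Cdh24 had a log2 fold change of -0.06, the only negative one of the 13, which was -0.23 with shECAD clone 9 left out and 0.05 with shECAD clone 8 left out. Of the 5 other numbered cadherins (Cdh13, Cdh16, Cdh17, Cdh23 and Cdh26), 0 were called by limma and 1 had an unadjusted p below 0.05. That gene was Cdh13, the membrane-anchored T-cadherin, at 0.52 ± 0.19 on the log2 scale (SE, limma adjusted p = 0.172).

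**Figure D2:**
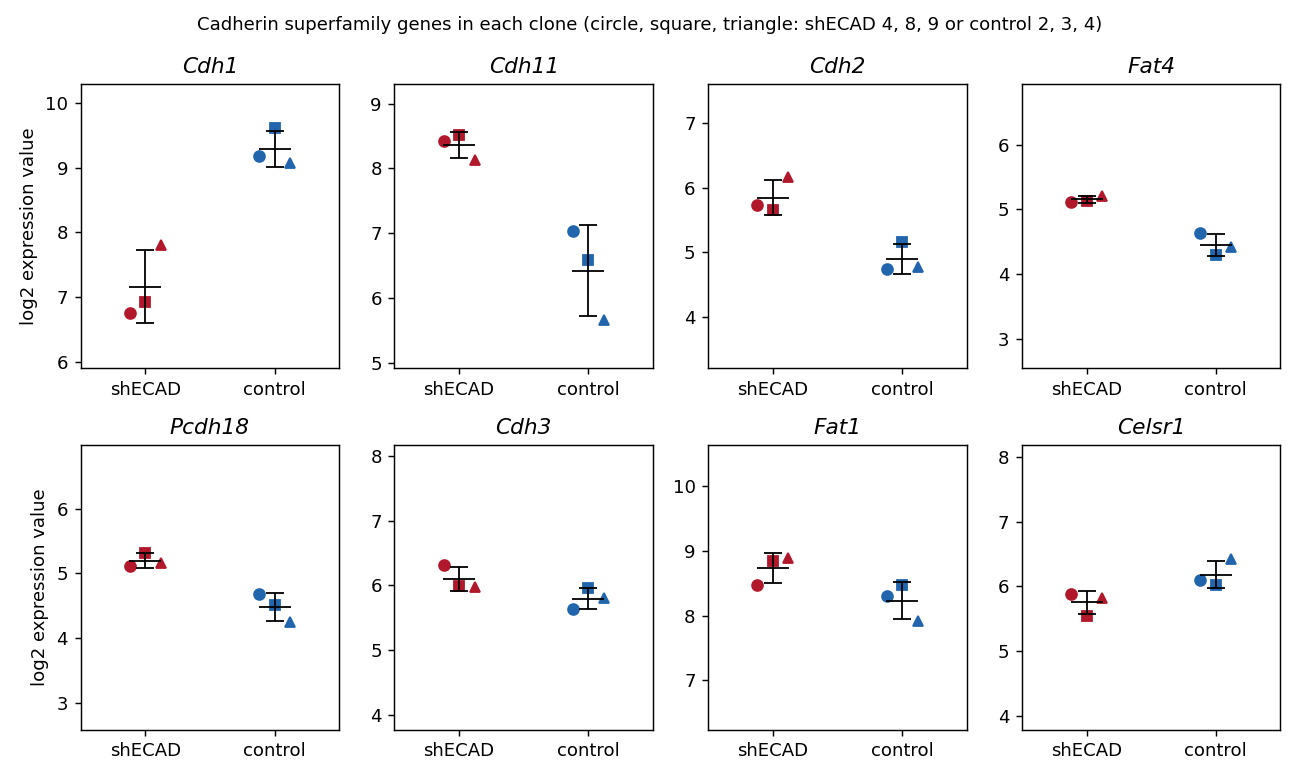
Log2 expression value (y axis, spanning 4.4 log2 units in each panel) of 8 members in the 3 shECAD clones (red, left) and the 3 control clones (blue, right); the black bar is the mean and its error bar the SD. Cdh1 is lower in every shECAD clone, Cdh11, Cdh2, Fat4 and Pcdh18 are higher in every shECAD clone, and the groups of Fat1 touch at 8.48.

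In the Fat group 1 of 4 genes rose. Fat4, a giant cadherin that binds Dachsous 1, read 5.12, 5.13 and 5.21 in shECAD clones 4, 8 and 9, against 4.63, 4.30 and 4.41 in control clones 2, 3 and 4. The shECAD clones differed little and lay above all control clones. The rise was 1.63-fold, with a 95% interval from 1.29 to 2.06 (log2 fold change 0.71 ± 0.15 SE, limma adjusted p = 0.0374). The call held without control clone 2 and was lost without any of the other 5 clones (adjusted p up to 0.144, without control clone 4) and narrowly after median centring (0.0507).

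Fat1, which is widely expressed in epithelia, read 8.48, 8.84 and 8.89 in the shECAD clones, against 8.31, 8.48 and 7.91 in the control clones. Its lowest shECAD value met the highest control value, and the log2 fold change of 0.50 ± 0.19 (SE) did not pass the test (limma adjusted p = 0.197). Fat2 had a log2 fold change of 0.05 and turned to -0.04 after median centring and to -0.08 after quantile normalization.

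Fat3 was represented by 15 probesets, more than any other member. The brightest, which stands for it, differed by 0.38 ± 0.22 (log2 fold change and SE, limma adjusted p = 0.412). Leaving out control clone 3 gave 0.18 and leaving out shECAD clone 9 gave 0.25. Over the 15 probesets the log2 fold change ran from -0.06 to 0.67 with a median of 0.43. It was positive in 13 and negative in 2, and none was called by limma over all probesets, with 4 at an unadjusted p below 0.05 and a lowest adjusted p of 0.135. In 2 of them the shECAD values lay wholly above the control values. Probesets of 1 gene share their RNA and are not replicates.

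**Figure D3:**
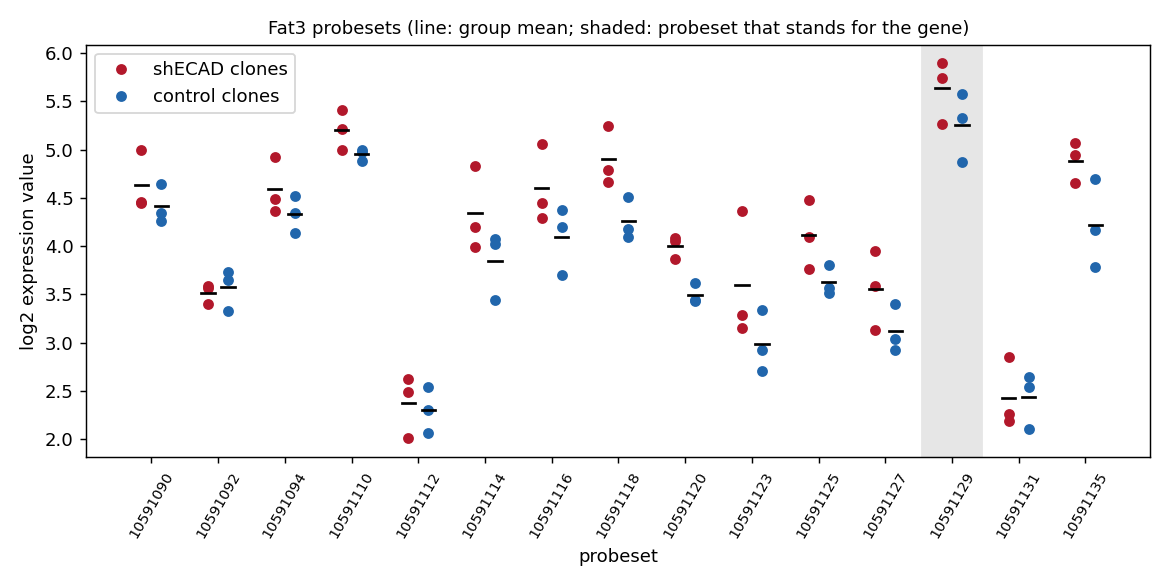
Log2 expression value (y axis) of the 15 Fat3 probesets (x axis) in the shECAD clones (red, left of each pair) and the control clones (blue, right); lines are group means and the shaded probeset stands for the gene. The shECAD mean is the higher one in 13 of the 15 probesets, mostly with overlapping clones.

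Dchs1, the gene of the Fat4 partner Dachsous 1, had a log2 fold change of 0.02 ± 0.16 (SE), with readings of 4.92, 4.95 and 5.05 in the shECAD clones, against 5.19, 4.81 and 4.85 in the control clones. Its sign turned after median centring (-0.07) and quantile normalization (-0.10). The Celsr genes had the only subfamily median below 0 among the relatives (-0.20), and 0 of the 3 were called by limma, with 1 at an unadjusted p below 0.05. Celsr1 read 5.89, 5.55 and 5.83 in the shECAD clones, against 6.10, 6.02 and 6.43 in the control clones. These ranges did not overlap, and the log2 fold change was -0.43 ± 0.17 (SE, limma adjusted p = 0.22). Celsr2 and Celsr3 had values of -0.16 and -0.20 with overlapping groups, and with 1 clone left out Celsr2 ran from -0.31 (without control clone 2) to 0.0027 (without shECAD clone 8) and Celsr3 from -0.37 (shECAD clone 9 left out) to -0.08 (shECAD clone 8 left out).

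Among 12 non-clustered protocadherins, surface proteins with roles in cell sorting and neural wiring, 1 rose, and the point estimates of all 12 were above 0 with a median log2 fold change of 0.37. All 12 lay below the median level of all genes, where 68.5% of all genes had a point estimate above 0. Pcdh18 read 5.11, 5.32 and 5.16 in shECAD clones 4, 8 and 9, against 4.68, 4.51 and 4.25 in control clones 2, 3 and 4. The groups lay apart by 0.43 log2 units at their nearest clones. The rise was 1.64-fold, with a 95% interval from 1.28 to 2.12 (log2 fold change 0.72 ± 0.16 SE, limma adjusted p = 0.0465). It held without control clone 2 and was lost without any of the other 5 clones (adjusted p up to 0.182, without control clone 4), after median centring (0.0698), after quantile normalization (0.0896) and with an intensity trend and a robust prior (0.0509).

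Pcdh20 and Pcdh1 did not pass the test. Pcdh20 read 4.77, 4.76 and 4.98 in the shECAD clones, against 4.32, 3.59 and 4.41 in the control clones (log2 fold change 0.73 ± 0.22 SE, limma adjusted p = 0.103). Leaving out control clone 3 lowered it to 0.47. Pcdh1 read 4.72, 5.15 and 5.14 in the shECAD clones, against 4.71, 4.17 and 4.01 in the control clones (0.71 ± 0.21 SE, limma adjusted p = 0.103). Both sets of shECAD values lay above the control values, Pcdh1 by 0.01 at the nearest clones, and Pcdh1 passed when control clone 2 was left out (adjusted p = 0.0459), as did Pcdh19. Pcdh7 had a log2 fold change of 0.59 ± 0.29 (SE) with overlapping groups, and 0.24 without control clone 4.

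The 22 clustered protocadherins with a probeset of their own were all of the beta cluster, Pcdhb1 to Pcdhb22, and 0 of them were called by limma, with 1 at an unadjusted p below 0.05. Their levels were low: for 19 of the 22 both group means lay below the 25th percentile of every array of their group, so that changes there are poorly measured. The log2 fold changes ran from -0.25 (Pcdhb1) to 0.54 (Pcdhb18) with a median of 0.14. Leaving out 1 clone moved Pcdhb18 down to 0.28 (without shECAD clone 9) and Pcdhb1 between -0.42 (without control clone 3) and -0.11 (without control clone 4). Pcdhb17 read 3.24, 3.54 and 3.44 in the shECAD clones, against 3.01, 2.83 and 2.79 in the control clones, with a log2 fold change of 0.53 ± 0.16 (SE, limma adjusted p = 0.0987). Its groups did not overlap. Next to Pcdhb1, the lowest values of the cluster were -0.15 for Pcdhb21 and -0.11 for Pcdhb13, both dim and overlapping. With 1 clone left out Pcdhb21 ran from -0.32 (without shECAD clone 9) to -0.03 (without control clone 4), and Pcdhb13 from -0.28 (without shECAD clone 9) to 0.02 (without control clone 2).

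**Figure D4:**
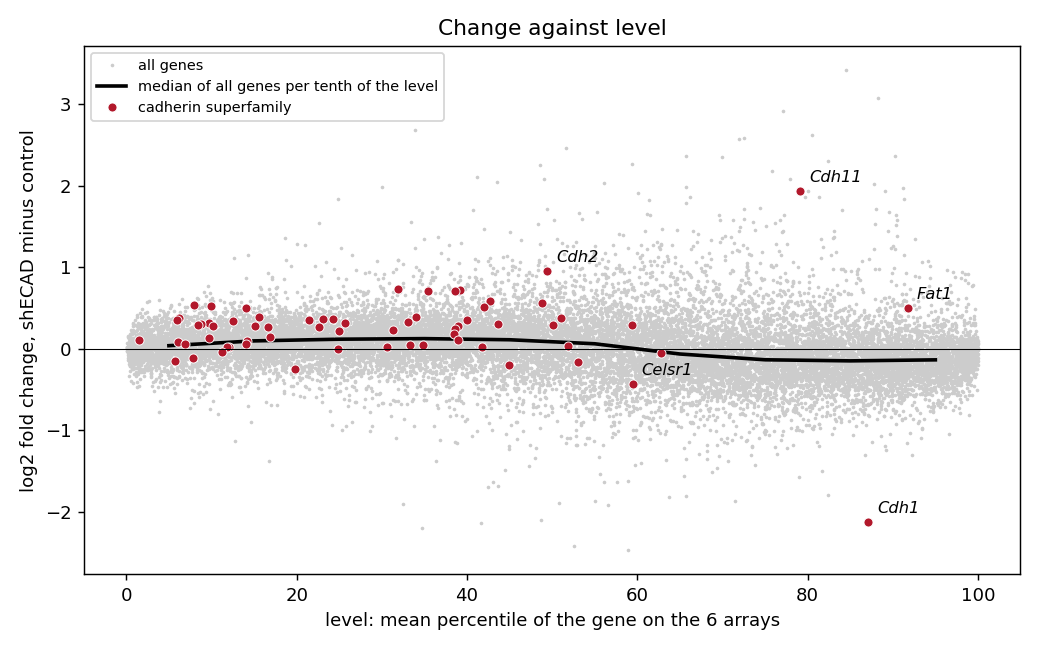
Log2 fold change (y axis, shECAD minus control) against level (x axis, mean percentile of the gene over the 6 arrays) for all 19938 genes (grey) and the 65 members (red); the black line is the median of all genes in each bin of 10 percentiles. The line lies above 0 among dim genes and below 0 among bright genes, and most members lie in the dim part and above the line.

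The precision bounds what the relatives could have done. The 95% interval of the change, not adjusted for the number of genes, left out a 2-fold rise for 54 of the 64 relatives and a 2-fold fall for all 64. For Cdh11, read from the probeset annotated to it alone, the whole interval lay above a 2-fold rise. For the other 9 relatives it held a 2-fold rise: Cdh2, Fat4, Pcdh18, Pcdh20, Pcdh1, Pcdh7, Pcdh19, Pcdhb18 and Pcdhb7. Array values understate changes of dim genes, so these bounds are least firm for the beta cluster and other dim relatives. For 25 relatives both group means lay below the 25th percentile of every array of their group. Of these 19 belong to the beta cluster, and the others are Cdh7, Cdh9, Cdh12, Cdh17, Cdh19 and Pcdh11x.

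The rises of the relatives stood beside the difference in fibroblast markers. The mean log2 level of the 21 fibroblast and feeder markers was 7.20, 7.51 and 7.20 in shECAD clones 4, 8 and 9, against 6.53, 6.12 and 5.52 in control clones 2, 3 and 4. Within the control clones Cdh11 and Pcdh18 had the same order as this list (clone 2, then 3, then 4), and in both groups the clone with the highest list mean had the highest Cdh11 and Pcdh18. Cdh2 did not follow that order: its highest control value was in clone 3 and its highest shECAD value in clone 9. Nor did Fat4, whose lowest control value was in clone 3. With 3 clones a group these orders are descriptions, and the part of fibroblast-marker RNA in the rises was not tested.

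**Figure D5:**
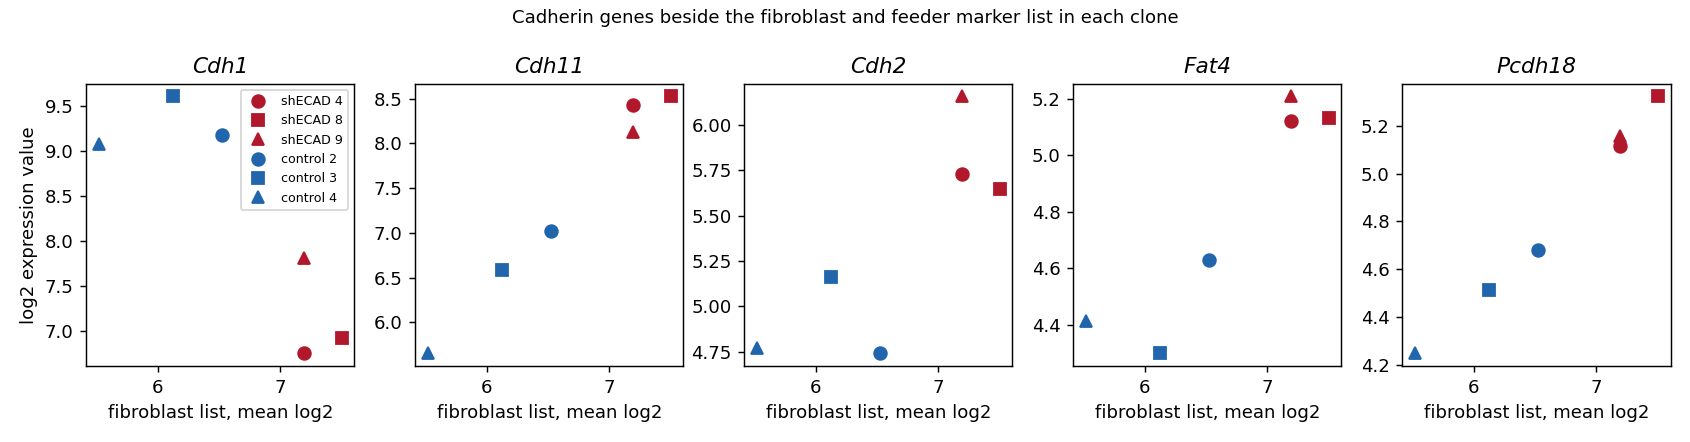
Log2 expression value (y axis) of Cdh1 and the 4 relatives that rose against the mean log2 level of the 21 fibroblast and feeder markers (x axis), 1 point per clone. Red shECAD clones lie at 7.20 to 7.51 and blue control clones at 5.52 to 6.53 on the x axis.

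Of 16 junction partners, which include the catenins, 0 were called by limma, where 3.12% of all genes were called. At an unadjusted p below 0.05, 2 were higher and 0 lower. Over all genes 8.96% were that far up and 9.07% that far down. The largest values were 0.68 ± 0.19 (SE, limma adjusted p = 0.0834) for Vcl, the actin linker vinculin, and 0.43 for Lima1. Of 16 desmosomal cadherins and other relatives outside the rule, 0 were called by limma. At an unadjusted p below 0.05, 2 were higher and 0 lower, and the 2 were Cdhr1 and Dsc2 at 0.60 each. Of 16 genes of cadherin cleavage and turnover, 0 were called by limma, with 4 higher and 0 lower at an unadjusted p below 0.05. The log2 fold change was 0.71 for the membrane protease Mmp14 (0.40 without control clone 4) and 0.59 for Adam15.

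Of 17 genes listed as repressors and activators of Cdh1, 3 rose and 0 fell, and the list median was 0.41. By limma 7 were higher and 1 lower at an unadjusted p below 0.05, against 8.96% and 9.07% of all genes. Snai2 and Twist2, known in other settings as repressors of epithelial genes, had log2 fold changes of 0.98 ± 0.21 and 0.89 ± 0.19 (SE, limma adjusted p = 0.0347 and 0.0339). Esrp2, the other listed gene that was called, is a splicing factor of epithelial cells and no repressor. Its log2 fold change was 0.84 ± 0.17 (SE, limma adjusted p = 0.0332). Snai1 did not pass, at 0.43 and, without shECAD clone 9, 0.23. All 3 lost their calls without shECAD clones 4 or 8 or control clones 3 or 4, each left out singly, Twist2 also without shECAD clone 9 and Esrp2 also without control clone 2 (limma adjusted p up to 0.141 for Snai2, 0.142 for Twist2 and 0.101 for Esrp2). Snai2 also lost its call after quantile normalization (0.0517).

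Of 17 partners of Fat, Dachsous and Celsr, 1 rose and 0 fell. By limma 5 were higher and 1 lower at an unadjusted p below 0.05, against 8.96% and 9.07% of all genes. Prickle1, which encodes a cytoplasmic planar polarity protein, was the riser, at 1.27 ± 0.24 (log2 fold change and SE, limma adjusted p = 0.0269). It was no longer called without shECAD clone 8, control clone 2 or control clone 4 (adjusted p up to 0.0933). Of 16 regulators of the clustered protocadherins, such as Ctcf and cohesin genes, 1 fell and 0 rose, and the list median was -0.25. By limma 4 were lower and 0 higher at an unadjusted p below 0.05, where 9.07% of all genes were that far down. The shECAD values of 7 lay wholly below the control values, as did those of 12.5% of all genes. Wapl, which releases cohesin from DNA, had a log2 fold change of -0.65 ± 0.15 (SE, limma adjusted p = 0.0491), and leaving out any clone ended its call (adjusted p up to 0.185, without control clone 4), as did quantile normalization (0.0671) and fitting every probeset (0.0528).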

How the data were processed

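The authors deposited 1 log2 expression value per probeset and array. The submitters' processing notes name RMA and Partek. Versions, settings and build: not given in the sources used here. Values were used as deposited. Of 28853 probesets, 21789 have 1 gene symbol in the platform annotation; each of 19938 genes was read from its brightest probeset on average, with no filter on dim probesets. All 65 members matched RefSeq (GRCm38.p6, used for names, gene order and promoters). All genes were fitted with limma 3.58.1 (lmFit and eBayes) in R 4.3.3, shECAD against control, with no covariate, and p-values were adjusted by Benjamini and Hochberg over all genes; an adjusted p below 0.05 was a call. An exact permutation test of 3 clones against 3 cannot go below p = 0.1. The fit was tested on simulated data.

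The members and gene lists were chosen with earlier results of these data known. Named members were Cdh1, all called members, all type I, Fat, Dachsous and Celsr genes, Cdh5 and Cdh11, the largest rises and falls among members at or above the median level (up to 6 each) and among the rest (3 each). Of each other list the called genes, at most 5, or else the 2 largest changes were candidates; further genes were chosen after their values were seen. Alternatives were median centring, quantile normalization, brighter genes only, averaged or separate probesets, a trend with a robust prior, no moderation, array weights, a threshold of 0.1 and leaving out each clone. Adding probesets with several symbols was chosen after seeing the data. Figures used matplotlib 3.10.9.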

Additional observations from a re-analysis of the deposited data

How the results depend on the processing

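Cdh1 was called lower in all alternatives except the fit without variance moderation, where its log2 fold change was the same (-2.13) and 0 members were called lower; with 1 clone left out it ran from -2.45 to -1.92. The 4 relatives called higher became 2 after median centring (Cdh11 and Cdh2), 2 after quantile normalization (Cdh11 and Fat4), 1 among genes at or above the median level (Cdh11, with 9 members tested) and 0 without moderation, where limma called 3 genes in all; with 1 clone left out they numbered 0 to 5. Among brighter genes alone the median log2 fold change was 0.033 over the 9 members there, Cdh1 included, against 0.28 over all 65 members. The 8 relatives among these brighter genes had a median of 0.16. With 1 clone left out the median over all 65 ran from 0.18 to 0.34. Values near 0 changed sign: Fat2 (-0.044 and -0.080), Cdh4 (-0.057 and -0.050) and Dchs1 (-0.066 and -0.098) after median centring and quantile normalization. With 1 clone left out they ran from -0.034 to 0.14, -0.030 to 0.14 and -0.043 to 0.14, and Celsr2 ran from -0.31 to 0.0027, Cdh24 from -0.23 to 0.053 and Pcdhb13 from -0.28 to 0.019. The causes were not tested. No paired analysis was made because the labels tie no shECAD clone to a control clone. For 25 members both group means lay below the 25th percentile of their arrays, which limits their signal over background.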

Other observations

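Some cadherin probesets carry several gene symbols and are not among the 65 members. One reads the alpha cluster (14 Pcdha symbols) and had 4.11, 3.87 and 4.16 in shECAD clones 4, 8 and 9, against 3.74, 3.41 and 3.88 in control clones 2, 3 and 4 (log2 fold change 0.37 ± 0.17 SE, limma adjusted p = 0.35 over all probesets). Another 3 are annotated to Cdh11 together with 6820431F20Rik and 2610005L07Rik, and their log2 fold changes were 0.23, -0.05 and 0.25 with overlapping groups, while the probeset annotated to Cdh11 alone had 1.94. The brightest of these 3 read 10.32, 10.40 and 9.95 in the shECAD clones, against 10.16, 9.96 and 9.83 in the control clones. The part of Cdh11 in the signal of these 3 probesets is not known.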
